A study of Hevea brasiliensis with 6 samples.

Results

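Leaves of the rubber tree (Hevea brasiliensis) clone 93-114 after 1 h at 4 °C were set against control leaves of the same clone, kept without cold. The members were chosen by a plain rule: every assembled transcript sequence, called a unigene, with at least 1 sequenced fragment in either library, which gave 157270 of the 167072 unigenes of the series. The series covers leaf RNA of the cold-resistant clone 93-114 and the cold-sensitive clone Reken501, each after 1 h and 24 h at 4 °C and at control. Each of the 6 conditions is 1 library made from a pool of leaves of 3 plants, so no difference between libraries has a replicate check, and a difference between pools cannot be told apart from a difference due to the cold. The plants were young trees with mature leaves, and each clone is 1 genotype. The deposited counts give 21.2 M fragments after 1 h and 20.4 M at control for 93-114, a ratio of 1.04, and the largest of the 6 libraries is 1.08 times the smallest.

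The rubber tree comes from a tropical lowland forest and is injured by temperatures that plants of cool climates endure. In plants studied closely, above all Arabidopsis, chilling stiffens membranes and lets calcium into the cell within minutes. Transcription factors such as ICE1 then switch on CBF/DREB genes, and these in turn raise the genes for protective proteins and for enzymes that make protective sugars. Most of what is known of that order comes from such plants and not from tropical trees. Jasmonate, ethylene and abscisic acid signalling, heat shock proteins and enzymes that remove reactive oxygen also take part. Which of the unigenes encode any of these is not given in the files, which pair no unigene with a gene name, and no unigene ID occurs in the RefSeq gene table of this species. The unigenes are therefore described by their counts, length, abundance and cluster, only 4 are given by ID, and the leaf label could not be checked against marker genes.

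Most unigenes took a smaller part of the library after 1 h of cold than at control. Of the 41500 that took a larger part, 24 made 50% of the gain. Over the 87004 unigenes that averaged 10 fragments or more in the 2 libraries, the median log2 ratio of 1 h to control was -0.70 relative to the library totals, and 79.1% of the ratios were below 0. The rank-based 95% interval of that median was -0.71 to -0.70, which treats unigenes as independent and covers no spread between pools. The quartiles lay at -1.27 and -0.14 on the log2 scale. With TMM factors, which set the 2 libraries relative to the bulk of the unigenes in place of the totals, the same median was -0.052 and 52.7% of the ratios were below 0. The choice of scaling thus moved every log2 ratio by 0.65, and the values below are relative to the totals unless TMM is named. In Reken501, whose libraries are separate from these, the median after 1 h was -0.10 over 87278 unigenes relative to the totals, with 57.2% of the ratios below 0, and -0.0056 with TMM factors. Fragments are counted relative to a total, so less RNA per leaf and fewer cells of a type cannot be told apart from them, and neither can a fall of many transcripts from a gain of a few.

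**Figure D1:**
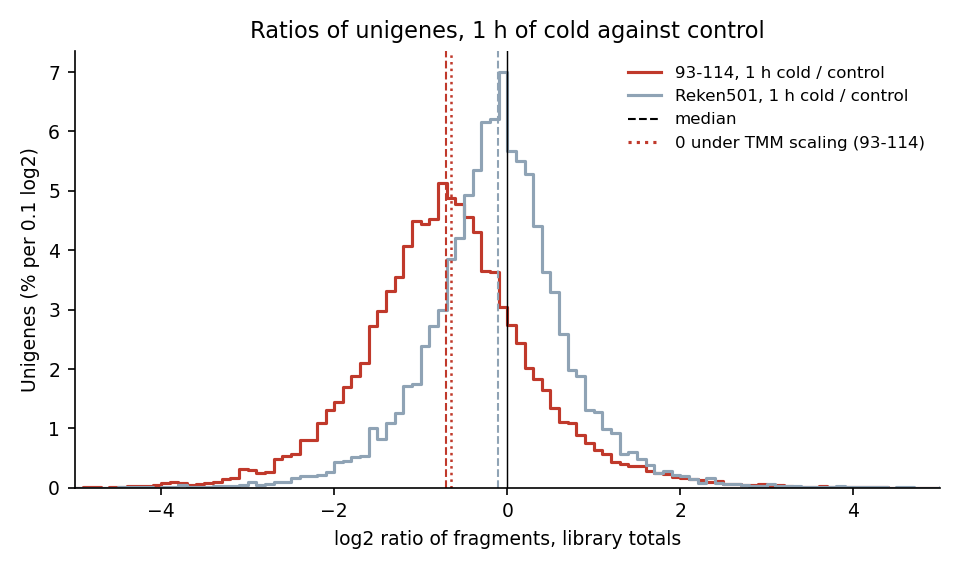
Log2 ratio of fragments after 1 h of cold to control (x axis, relative to library totals) against the percent of unigenes per bin of 0.1 (y axis), for 93-114 and Reken501. The dashed lines mark the medians, -0.70 in 93-114 and -0.10 in Reken501, and the dotted line marks where 0 falls for 93-114 under TMM scaling.

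A unigene was called raised or lowered where a two-sided exact binomial test of its fragments in the 2 libraries gave a Benjamini-Hochberg adjusted p of at most 0.001 and the log2 ratio, with 0.5 fragments added to each count, was at least 1 in size. The test compares these 2 libraries and not the conditions. Relative to the totals, 2258 unigenes were raised (1.44% of those tested) and 17210 were lowered (10.9%), so 11.6% of the called unigenes were raised (95% Wilson interval 11.2 to 12.1). With TMM factors 6029 were raised (3.83%) and 3542 were lowered (2.25%), and the raised made up 63.0% (62.0 to 64.0). The larger side was therefore the lowered one under totals and the raised one under TMM. All 2258 unigenes raised under totals were raised under TMM too. TMM shifted every log2 ratio upward by 0.65, so the size condition could drop no raised unigene. For the same reason none lowered under totals could become raised, and the overlap is no agreement between 2 methods. Of the 17210 lowered under totals, 3542 were lowered under TMM, 13668 were no longer called and 0 were raised, while 3771 unigenes were raised under TMM alone. With the size of the log2 ratio as the only condition, 4381 of the 87004 unigenes with an average of 10 or more were raised relative to the totals (5.04%) and 31454 were lowered (36.2%).

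**Figure D2:**
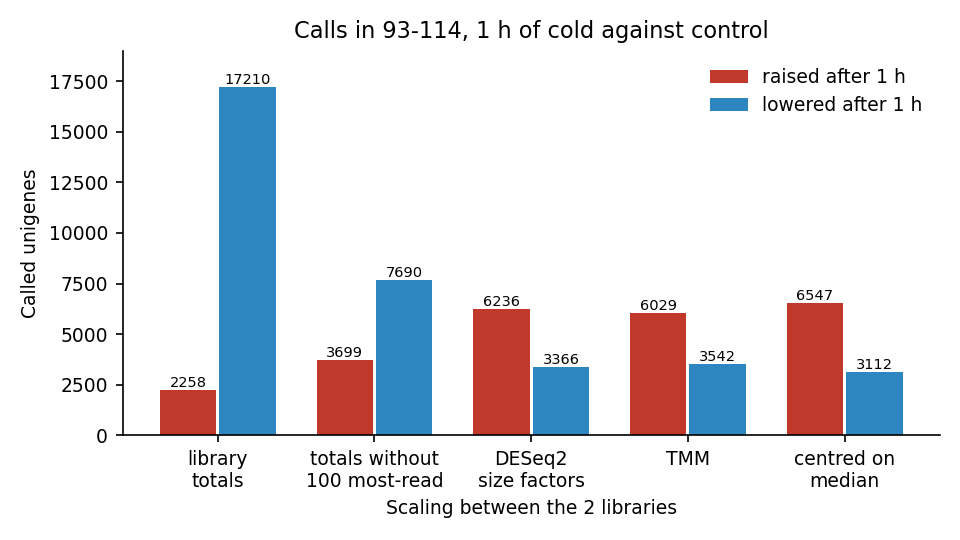
Number of unigenes called raised and lowered between 1 h of cold and control in 93-114 (y axis) under 5 ways to scale the 2 libraries (x axis). Lowered unigenes outnumber raised ones relative to the totals (17210 against 2258 raised), and raised ones outnumber lowered ones with TMM factors (6029 against 3542 lowered).

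The number of called unigenes fell with the size of the change. Relative to the totals, 957 of the 2258 raised and 5600 of the 17210 lowered unigenes changed at least 4-fold, out of 157270 tested. At least 16-fold, 129 were raised and 556 were lowered. At least 64-fold, 7 were raised and 14 were lowered. With TMM factors, out of 6029 raised and 3542 lowered, the numbers at these 3 sizes were 2630 raised and 1032 lowered, 383 raised and 139 lowered, and 33 raised and 2 lowered. Many of these rest on a count near 0: the 129 raised at least 16-fold had a median of 1.08 fragments per M after 1 h and 0 at control, and the 556 lowered had 0 after 1 h and 0.982 at control. The size of such a ratio depends on the 0.5 fragments added and is no bound on the change. The size condition and, for rarer unigenes, the counts set how small a change could be called. A unigene with 100 fragments at control had to reach 210 after 1 h to be raised relative to the totals, or 51 or fewer to be lowered. The size condition set those limits. For rarer unigenes the counts did. A unigene with 10 fragments at control had to reach 38 to be raised and could not be called lowered at any count. One with 30 had to be at 7 or fewer to be lowered.

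The called unigenes held a large part of the library. Those raised relative to the totals took 26.2% of the fragments after 1 h and 8.77% at control, and those lowered took 6.58% after 1 h and 18.5% at control. With TMM factors the raised took 48.6% after 1 h and 23.5% at control, and the lowered took 1.44% after 1 h and 5.74% at control. These shares follow from the calls and are a description of them. In libraries that the calls did not use, the unigenes raised relative to the totals took 20.1% of 93-114 after 24 h of cold, and 8.66%, 10.7% and 8.12% of Reken501 after 1 h, after 24 h and at control. Among these libraries the share of this set was thus highest in 93-114 after 24 h. The 8.77% of control 93-114, which the call used, lay within the range of the Reken501 libraries. The lowered set took 7.94% of 93-114 after 24 h, and 13.0%, 11.7% and 14.7% of Reken501 after 1 h, after 24 h and at control. The comparison at 24 h uses the same control library as the one at 1 h, so its values stand beside these and are no separate evidence.

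Raised and lowered unigenes were both longer than the rest. The median length was 770 bases for those raised relative to the totals and 1088 bases for those lowered, and 382 bases for those not called. Per length, the median level of the raised unigenes was 6.89 FPKM (fragments per kilobase and per M fragments) after 1 h and 1.89 FPKM at control, and that of the lowered unigenes was 1.29 FPKM after 1 h and 4.58 FPKM at control. A longer unigene collects more fragments at the same level, so length and the power to call go together.

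The gain was carried by few unigenes and the loss by many. Of the fragments, 26.7 percentage points lay on a different unigene after 1 h than at control. The gain was spread over 41500 unigenes, of which 24 made 50% of it, and the loss over 115770, of which 2637 made 50%. The 10 largest gains came to 8.92 percentage points (33.4% of the gain), and the 10 largest losses came to -2.53 percentage points (9.45% of the loss). These are changes in shares of the library totals, so gains and losses add up to the same amount by construction, and they have no counterpart under TMM. With TMM factors 76048 unigenes had a log2 ratio above 0 and 81222 below 0.

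The 24 unigenes that made 50% of the gain were chosen after their values were seen, so their rise in 93-114 is a description. They took 25.9% of the fragments of 93-114 after 1 h and 12.3% at control, with log2 ratios between 0.40 and 2.998 and a median of 1.29 relative to the totals. With TMM factors the median was 1.95, and all 24 had a log2 ratio of at least 1, against 18 of 24 relative to the totals. They were between 728 and 3983 bases long. After 24 h of cold they took 22.5% of the 93-114 library. In Reken501 the same 24 took 16.2% after 1 h, 14.9% after 24 h and 14.0% at control. Their log2 ratios in Reken501 after 1 h ran between -1.003 and 0.94 relative to the totals, with a median of 0.08, 15 above 0 and 9 below. With TMM factors 17 were above 0 and 7 below. They were thus high in abundance in both clones, and the range of their change in Reken501 lay on both sides of 0 under either scaling.

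The fragments of 93-114 were gathered on fewer unigenes after 1 h than at control. The 100 most-read unigenes took 45.8% of the library after 1 h (95% Wilson interval 45.79 to 45.84, counting error only) and 31.4% at control (31.41 to 31.45). The most-read one alone took 4.31% after 1 h and 2.17% at control. To hold 50% of the fragments took 145 unigenes after 1 h and 788 at control. The effective number, the exponential of the Shannon entropy of the shares, was 2447 after 1 h and 6777 at control. After 24 h of cold in the same clone it was 2579, with 45.0% of the fragments on the 100 most-read unigenes. In Reken501 the 100 most-read unigenes took 35.1% after 1 h, 35.996% after 24 h and 32.2% at control, and the effective number was 4865 after 1 h, 4885 after 24 h and 5953 at control. Both clones thus had a more even library at control than in the cold, and the share of the 100 most-read unigenes after 1 h exceeded that at control by 14.4 percentage points in 93-114 and by 2.87 in Reken501. That difference between the clones was not tested, since each condition has 1 library.

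**Figure D3:**
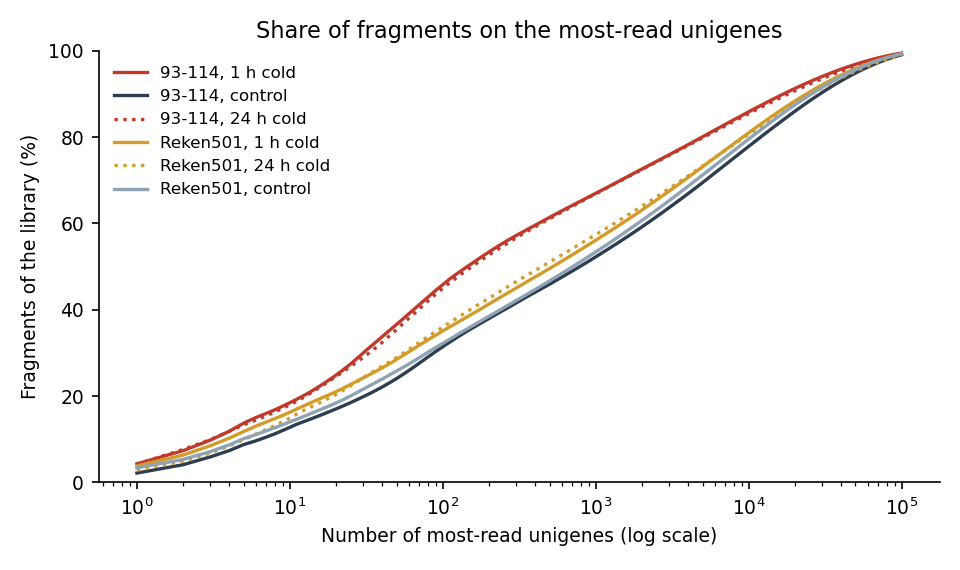
Percent of the library's fragments (y axis) on the given number of most-read unigenes of that library (x axis, log scale), for the 6 libraries. The curves of cold-treated 93-114 lie above the others at 10, 100 and 1000 unigenes, with 45.8% on the 100 most-read after 1 h against 31.4% at control.

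The change depended on how abundant a unigene was. To keep the abundance apart from the ratio, unigenes were grouped by their mean fragments in the 3 Reken501 libraries. The bounds of these groups were set after the data were seen. Relative to the totals, the median log2 ratio of 1 h to control in 93-114 was -0.71 among the 8872 unigenes with a mean below 1, and also among the 59072 from 1 to 10 and the 40451 from 10 to 30. It was -0.63 among the 5855 unigenes from 300 to 1000 fragments, -0.50 among the 1575 from 1000 to 3000, -0.26 among the 467 from 3000 to 10000 and 0.10 among the 195 with 10000 or more. With TMM factors the medians ran between -0.066 in the group from 30 to 100 fragments and 0.75 in the most abundant group. The order of the groups is the same under either scaling, but the sign of the groups from 300 to 10000 fragments is not.

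The 195 most abundant unigenes took 49.3% of the fragments of 93-114 after 1 h and 36.1% at control. Of them 31 were raised and 8 were lowered relative to the totals, that is 15.9% and 4.10%, beside 1.44% and 10.9% over all unigenes tested. With TMM factors 74 were raised (37.9%) and 3 were lowered (1.54%), beside 3.83% and 2.25% over all. More fragments make a call easier, and many of all unigenes tested were too rare to be called. By the log2 ratio alone, 5.04% of the unigenes that averaged 10 fragments or more were raised and 36.2% lowered relative to the totals. The 195 did not move as one. Their quartiles were -0.39 and 0.59 on the log2 scale relative to the totals, a spread of 0.97 where counting error would give 0.019. Among rare unigenes counting error was a larger part of the spread: from 10 to 30 fragments the quartiles were 1.45 apart, and counting error would give 0.79. In Reken501, grouped in the same way by the mean of the 93-114 libraries, the median log2 ratio of 1 h to control stayed between -0.095 and 0.066 in every group relative to the totals, and between 0.0023 and 0.16 with TMM factors.

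**Figure D4:**
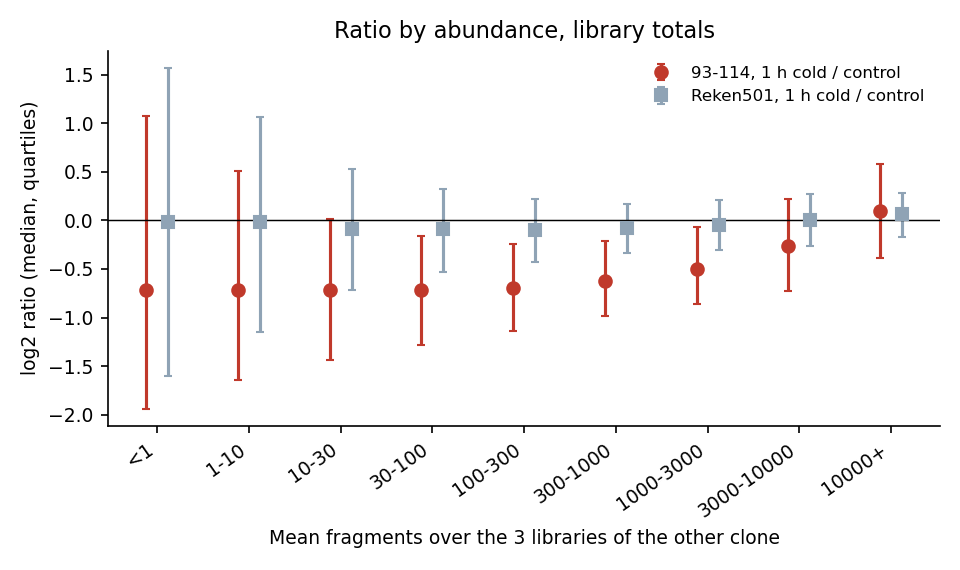
Median log2 ratio of 1 h of cold to control relative to library totals (y axis, with bars at the quartiles) by the mean fragments of a unigene in the 3 libraries of the clone that is not plotted (x axis). The medians of 93-114 lie near -0.71 for rare unigenes and at 0.10 for the 195 most abundant, and those of Reken501 lie between -0.095 and 0.066.

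Length had less to do with the ratio. The median log2 ratio relative to the totals was -0.66 for unigenes of 150 to 299 bases, -0.67 for 300 to 999, -0.72 for 1000 to 1999, -0.75 for 2000 to 4999 and -0.72 for 5000 to 16715. With TMM factors these medians were -0.010, -0.022, -0.066, -0.10 and -0.072. Over unigenes that averaged 100 fragments or more, the medians relative to the totals fell with length, at -0.48, -0.57, -0.59, -0.67 and -0.71. The class of the longest unigenes differed in its share of the library: its 942 unigenes took 4.82% of the fragments after 1 h and 7.15% at control. Only 3 of them, of 8085 to 8908 bases and picked after their values were seen, made 77.1% of that loss, with 1.47% after 1 h and 3.27% at control. The other long unigenes took 3.35% after 1 h and 3.88% at control. The same 3 took 2.65% of 93-114 after 24 h, and 1.77%, 2.80% and 1.72% of Reken501 after 1 h, after 24 h and at control. Their share in control 93-114 was thus the highest of the 6 libraries.

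Among unigenes called the same way under both scalings, the raised one with the largest gain in share was CL13428.Contig1_All, of 728 bases, the most-read unigene of the 1 h library. It had 916544 fragments in 93-114 after 1 h and 391422 at control, that is 4.31% of the library after 1 h and 1.92% at control. Its log2 ratio was 1.17 relative to the totals, with an exact 95% interval of 1.16 to 1.17 for counting error, and 1.82 with TMM factors. After 24 h it had 742830 fragments in 93-114. In Reken501 it had 536630 fragments after 1 h, 449571 after 24 h and 413172 at control, a log2 ratio at 1 h of 0.36 relative to the totals and 0.46 with TMM factors. Both clones thus had close to the same share of it at control, 1.92% in 93-114 and 1.95% in Reken501, and the larger share after 1 h was in 93-114. Unigene25450_All, of 3983 bases, followed the same course. It had 437319 fragments in 93-114 after 1 h and 175330 at control, a log2 ratio of 1.26 relative to the totals and 1.91 with TMM factors, and 339338 after 24 h. In Reken501 it had 202961 fragments after 1 h, 187835 after 24 h and 155480 at control, with a log2 ratio at 1 h of 0.37 relative to the totals and 0.47 with TMM factors.

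The lowered one with the largest loss in share, by the same rule, was Unigene23948_All, of 8085 bases, one of the 3 long unigenes above. It had 117592 fragments in 93-114 after 1 h and 363064 at control, a log2 ratio of -1.69 relative to the totals and -1.04 with TMM factors, and 201503 after 24 h. In Reken501 it had 120613 fragments after 1 h, 216295 after 24 h and 118314 at control, with a log2 ratio at 1 h of 0.014 relative to the totals and 0.11 with TMM factors. It thus took 0.554% of 93-114 after 1 h, close to the 0.563% of Reken501 after 1 h and the 0.558% of Reken501 at control. After 24 h its share was 0.919% in 93-114 and 1.00% in Reken501, and the highest was 1.78% in control 93-114. Unigene2081_All, of 884 bases, had 6042 fragments in 93-114 after 1 h and 37436 at control, a log2 ratio of -2.69 relative to the totals and -2.04 with TMM factors, and 12446 after 24 h. In Reken501 it had 29136 fragments after 1 h, 10787 after 24 h and 42519 at control, with a log2 ratio at 1 h of -0.56 relative to the totals and -0.46 with TMM factors. Both clones thus had less of it in the cold libraries than at control, and the 1 h value was the lowest of 93-114 but not of Reken501.

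**Figure D5:**
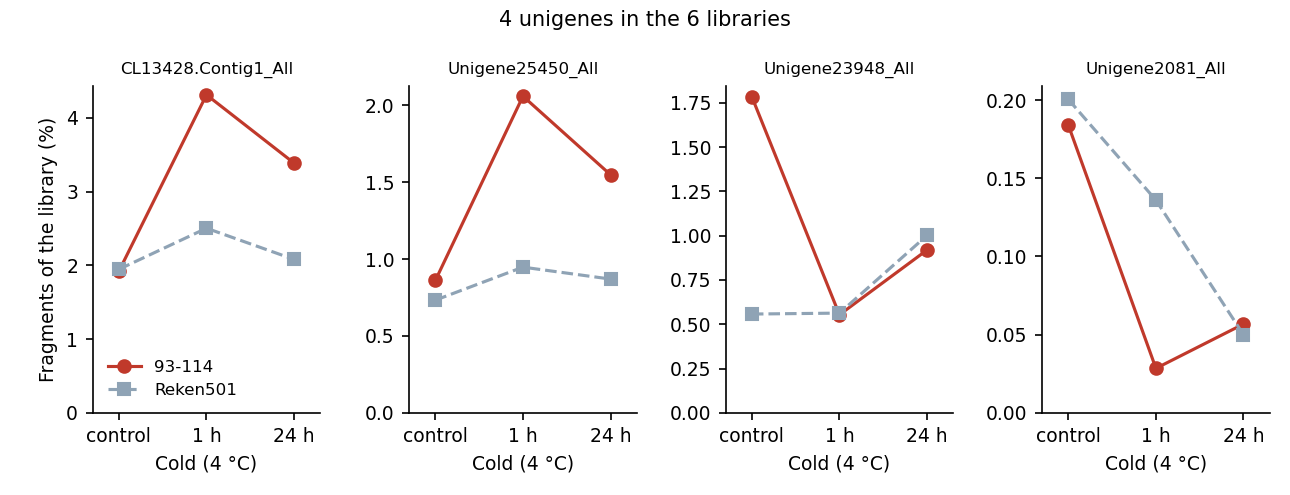
Percent of the library's fragments (y axis) on 4 unigenes at control, after 1 h and after 24 h of cold (x axis), in 93-114 and in Reken501, 1 library per point. The 2 raised unigenes peak at 1 h in 93-114, at 4.31% and 2.06%, and the 2 lowered ones are at their lowest there, at 0.554% and 0.0284%.

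Some unigenes were read in one of the 2 libraries and not in the other. At least 1 fragment fell on 145375 unigenes after 1 h and on 149456 at control, with 7814 read only after 1 h and 11895 read only at control. Most of these had few fragments, and a count of 0 allows up to 3. With 10 fragments or more on one side and 0 on the other, 280 unigenes were read only after 1 h and 985 only at control. The 280 had a median of 12 fragments after 1 h and a median length of 255.5 bases, and 85 of them were called raised relative to the totals and 200 with TMM factors. The highest had 265 fragments after 1 h and 0 at control, at least 84.6-fold higher relative to the totals and 133-fold with TMM factors, with the floor of 3 fragments per library. The 985 had a median of 12 fragments at control and a median length of 248 bases, and 378 of them were called lowered relative to the totals and 118 with TMM factors. The highest had 0 fragments after 1 h and 56 at control, at least 19.5-fold lower relative to the totals and 12.4-fold with TMM factors. Most of either kind were read in other libraries. Of the 280, 94.6% had a fragment in 93-114 after 24 h and 66.1% in control Reken501, and 17 had none in any Reken501 library. Of the 985, 80.4% had a fragment in 93-114 after 24 h and 84.3% in control Reken501, and 43 had none in Reken501.

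Unigenes named as contigs of the same cluster share sequence, and the counting could have split fragments between them. The median log2 ratio relative to the totals was -0.73 for contigs of clusters and -0.67 for unigenes outside clusters, and -0.073 and -0.020 with TMM factors. Of 16051 clusters, 2071 had at least 2 called contigs. In 127 of these all called contigs were raised, in 1867 all were lowered, and in 77 (3.72%) they moved opposite ways. With TMM factors 793 clusters had at least 2 called contigs, with 451 all raised, 279 all lowered and 63 (7.94%) opposite, and 26 clusters were opposite under both scalings. In the 77, the raised contigs had a median log2 ratio of 1.54 and the lowered contigs of -1.36 relative to the totals, and of 2.19 and -0.71 with TMM factors. Summed over all contigs of a cluster, 68 of the 77 lay within 1 of 0 on the log2 scale relative to the totals, with a median of 0.09, and 51 with TMM factors, with a median of 0.75. In Reken501 after 1 h the contigs raised in these clusters had a median of -0.16 relative to the totals (98 that averaged 10 fragments or more) and those lowered -0.19 (202 such), and -0.058 and -0.094 with TMM factors. The opposite movement within these clusters was thus not seen in the medians of Reken501. By calls in Reken501, 2 of the 112 raised contigs were raised and 8 were lowered. Of the 214 lowered contigs 10 were raised and 51 were lowered there. Over all unigenes tested in Reken501, 1.18% were raised and 2.03% were lowered. The part of abundance in these calls was not tested. Whether such contigs are alleles, splice forms or copies of a gene is not given in the files.

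The same unigenes could be followed in Reken501 after 1 h against its control, in libraries the calls did not use. There 1.18% of the unigenes were raised and 2.03% were lowered relative to the totals, and 1.51% and 1.54% with TMM factors. The unigenes raised in 93-114 relative to the totals had a median log2 ratio in Reken501 of -0.21 (1721 that averaged 10 or more fragments there), beside -0.10 over all. Of the 2258, 103 (4.56%) were raised and 180 (7.97%) were lowered in Reken501. Under TMM in both clones the sign of that median turned, to 0.019 beside -0.0056 over all, with 274 of 6029 raised (4.54%) and 255 lowered (4.23%). The unigenes lowered in 93-114 had a median in Reken501 of -0.19 relative to the totals and -0.17 under TMM. The filter behind these medians uses the libraries of the ratio itself and could keep unigenes high in one of them. With 10 fragments required in Reken501 after 24 h instead, the medians relative to the totals were -0.15 for the raised (1922 unigenes) and -0.18 for the lowered (15080), beside -0.053 over all. Under TMM they were 0.058 and -0.14, beside 0.044 over all. Of the 17210, 272 (1.58%) were raised and 894 (5.19%) were lowered in Reken501, and under TMM 106 (2.99%) and 225 (6.35%) of the 3542. Both sets thus held a larger share of unigenes called in Reken501, in either direction, than all unigenes did. They were also more abundant in Reken501: the median at control was 1.41 fragments per M for those raised in 93-114 and 2.73 for those lowered, beside 0.471 for those not called. More fragments make a call easier, and the part of this in the shares was not tested.

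The same count was made for the larger changes. Over all unigenes tested in Reken501, 1.18% were raised and 2.03% were lowered relative to the totals, and 1.51% and 1.54% with TMM factors. Of the 324 unigenes raised at least 8-fold relative to the totals, 34 (10.5%) were raised and 22 (6.79%) were lowered in Reken501, and of the 129 raised at least 16-fold, 17 (13.2%) and 5 (3.88%). With TMM factors 65 (6.81%) were raised and 47 (4.92%) lowered of the 955 at 8-fold, and 39 (10.2%) and 12 (3.13%) of the 383 at 16-fold. Of the 556 lowered at least 16-fold relative to the totals, 7 (1.26%) were raised and 19 (3.42%) were lowered in Reken501, and with TMM factors 2 (1.44%) and 3 (2.16%) of 139. The shares in these lowered sets thus lay closer to those over all unigenes than the shares in the raised sets did, and they rest on few calls. Most of these unigenes were rare, and no median ratio in Reken501 is given for them, because a filter on low counts could keep those that were high in its cold libraries. The 129 together took 0.0861% of the fragments of 93-114 after 1 h and 0.00381% at control. In Reken501 they took 0.0176% after 1 h, 0.0451% after 24 h and 0.0158% at control. Their summed share in Reken501 was thus close to the same after 1 h and at control, and highest after 24 h.

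The change in 93-114 was also set directly against that in Reken501. A Wald test on the 4 counts of each unigene, chosen after seeing the data, asked whether the log2 ratio of 1 h to control differed between the clones by at least 1 at a Benjamini-Hochberg adjusted p of at most 0.001, over the 72982 unigenes that averaged 10 fragments or more in both comparisons. Relative to the totals the ratio was higher in 93-114 for 1907 unigenes (2.61%) and lower for 9565 (13.1%), and the median difference of 93-114 minus Reken501 was -0.61. With TMM factors it was higher for 4184 (5.73%) and lower for 2776 (3.8%), and the median difference was -0.051. As within 93-114, the larger side depended on the scaling. Of the 4 unigenes given by ID, Unigene23948_All and Unigene2081_All were lower in 93-114 by this test, with differences of -1.70 and -2.13 relative to the totals and -1.15 and -1.58 with TMM factors. CL13428.Contig1_All and Unigene25450_All had differences of 0.80 and 0.89 relative to the totals, under the size required, and were higher in 93-114 with TMM factors, at 1.36 and 1.44. The test holds counting error only and compares 4 libraries, and a difference between pools cannot be told apart from one between the clones.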

How the data were processed

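Leaf RNA of 6 pools was sequenced on an Illumina platform, and adapter and low-quality reads were then removed. The authors deposited 4 tables, each with the fragment counts per unigene of 2 libraries, not normalized, and their FPKM. Dividing a deposited count by the unigene length (kilobases) and by the library total (M fragments) returns the authors' FPKM to within 5.0e-05. The authors' methods describe HISAT alignment to the rubber tree genome, transcripts rebuilt with StringTie and levels from RSEM after Bowtie2, for genes named by scaffold. The deposited tables list unigenes in place of such genes, so whether that procedure made them, and how these unigenes were assembled and counted, is not given in the sources used here. The authors' columns of log2 ratio, p-value and false discovery rate hold their own comparisons and were not used.

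The tables were joined by unigene ID. The control columns that occur in more than one table were checked to be equal, and every column was checked against the total in its heading. Members and settings were chosen with earlier results of these data known. Calls used an exact conditional binomial test with the smaller tail doubled, run with scipy 1.17.1, pandas 2.3.3 and numpy 2.4.6 under Python 3.11.15, and figures used matplotlib 3.10.9. edgeR's quasi-likelihood test needs replicates and was not possible. TMM factors came from edgeR 4.0.16 and size factors from DESeq2 1.42.0, in R 4.3.3, as alternatives. An average of 10 fragments or more was required where stated. The named unigenes are the 2 raised and 2 lowered, under both scalings, with the largest gain and loss in share. Of the 50196 genes of the RefSeq table, 0 matched a unigene ID. The calling was tested on simulated data. In a first run, changes on rarer unigenes were recovered less often than required, and the changes were then placed on well-read unigenes, so the test speaks for those only. The required recovery was set for counting error alone. Simulations with a spread between pools had no such requirement, so the test does not cover that spread. The alternatives were other scalings, count filters, thresholds, added fragments, an assumed spread between pools and summing contigs per cluster. The bounds of the length and abundance classes, the larger fold sizes, the set of 24 unigenes, the values within clusters with opposite calls and the comparison of the clones were chosen after seeing the data. Intervals and floors cover counting error only.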

Additional observations from a re-analysis of the deposited data

Results flagged for a closer look

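Some values at 1 h of cold lay on opposite sides of 0 in the 2 clones, with that of Reken501 near 0. The log2 of raised over lowered unigenes was 0.77 in 93-114 and -0.024 in Reken501 under TMM scaling only. Relative to the totals it was below 0 in both clones, at -2.93 in 93-114 and -0.79 in Reken501. This difference in counts of unigenes was not tested. Unigene23948_All had a log2 ratio of 1 h to control of -1.69 in 93-114 and 0.014 in Reken501 relative to the totals, and -1.04 in 93-114 and 0.11 in Reken501 with TMM factors. By the Wald test on its 4 counts the difference of 93-114 minus Reken501 was -1.70 (95% interval for counting error -1.72 to -1.69) relative to the totals and -1.15 (-1.16 to -1.13) with TMM factors. That test compares 4 libraries and holds no spread between pools.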

How the results depend on the processing

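Listed here are numbers of unigenes that changed over 1.5-fold and shares and medians that fell outside their 95% interval; where no cause is given, the cause was not tested. No paired analysis was possible because each condition has 1 library, and no library could be left out for the same reason. Over all results and alternatives, 29 values stayed within these bounds, 65 moved and 1 reversed. The switch of the larger side from lowered to raised, with TMM or DESeq2 factors or median centring, is counted among the moved. Raised and lowered unigenes numbered 6029 and 3542 (63.0% raised) with TMM factors of the 2 libraries, 6354 and 3275 (66.0%) with those of all 6, 6236 and 3366 (64.9%) with DESeq2 size factors, 6547 and 3112 (67.8%) with ratios centred on their median, and 3699 and 7690 (32.5%) once the 100 most-read unigenes were dropped from the totals. There were 4401 and 32009 (12.1%) at an adjusted p of 0.05, 957 and 5600 (14.6%) at a log2 ratio of 2, and 4381 and 31454 (12.2%) by the log2 ratio alone. Summing contigs per cluster gave 1649 and 11064 (13.0%), where fewer features were tested. With a coefficient of variation between pools assumed in edgeR's exact test, they numbered 413 and 1154 (26.4%) at 0.2, and 1 and 0 (100%) at 0.4, so the number of calls rests on a spread that 1 library per condition cannot give. A low count filter and 3 fragments added kept the numbers within 1.5 times. The median log2 ratio was -0.695 with a mean of at least 1 fragment and also with the filter on Reken501, -0.62 with at least 100, -0.66 with 3 fragments added, -0.67 with contigs summed, -0.35 without the 100 most-read unigenes, -0.052 with TMM and -0.032 with DESeq2 factors. With TMM the medians by length, shortest first, were -0.010, -0.022, -0.066, -0.10 and -0.072. Relative to the totals, over unigenes with at least 100 fragments, those of the 4 shorter classes were -0.48, -0.57, -0.59 and -0.67. At an FPKM of at least 1, 75221 unigenes were read after 1 h and 97061 at control, with 31043 at control only, and at 5 fragments or more 23589 were read at control only. The 100 most-read unigenes of control Reken501 took 39.4% after 1 h and 29.3% at control, the 100 most-read clusters 49.7% and 34.8%, and the 1000 most-read unigenes 67.0% and 52.2%. Clusters with all called contigs raised or all lowered numbered 451 and 279 with TMM. At a log2 ratio of 2 they numbered 42 and 398, with 8 opposite. In Reken501 the median of the unigenes raised in 93-114 was 0.019 with TMM, the 1 value counted as reversed. It is over a larger set of unigenes, and its interval holds 0. The median of the lowered was -0.17.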
